A study of Homo sapiens with 132 samples.

Results

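The enzymes that write and erase DNA methylation, and the catalytic core of polycomb repressive complex 2 (PRC2), were measured by RNA sequencing in 4 gastric cancer cell lines. The set held the maintenance methyltransferase DNMT1 and its partner UHRF1, the chromatin remodeller HELLS, the de novo methyltransferases DNMT3A and DNMT3B, the dioxygenases TET1, TET2 and TET3, and the PRC2 subunits EZH2 and SUZ12. Its members were taken by gene symbol, but the set was chosen with earlier results of these data known. All 10 were found among the 65217 gene identifiers of the count files. All 10 passed the filter on low counts in every cell line, and the lowest count of a member in any library was 50.

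DNA methylation of CpG sites is copied at replication: UHRF1 recognises hemimethylated DNA and recruits DNMT1, which methylates the new strand, and HELLS opens nucleosomal DNA for methylation. DNMT3A and DNMT3B set methylation on unmethylated DNA, and the TET enzymes oxidise 5-methylcytosine, the first step of its removal. EZH2 methylates lysine 27 of histone H3, needs SUZ12 for its activity, and so maintains silent genes. DNMT1, UHRF1, HELLS and EZH2 are known to be high in dividing cells.

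Hs746T and MKN1 cultures received no agent, afatinib at 0.5 μM, trastuzumab at 5 μg/ml, both of these, EGF at 5 ng/ml, cetuximab at 1 μg/ml, or EGF with cetuximab. NCI-N87 (N87 in the labels) and MKN7 cultures received no agent, afatinib, trastuzumab or the combination of these, and RNA of every group was taken at 4 h and 24 h. EGF is a ligand of EGFR, cetuximab an antibody against EGFR, trastuzumab an antibody against HER2, and afatinib a kinase inhibitor of EGFR, HER2 and HER4. All are established lines, so each group represents a single line, and the series design describes the 3 replicates of each condition as biological. Hs746T cells were kept in DMEM and the other lines in RPMI, so medium and line cannot be told apart. All comparisons with afatinib were made against untreated cells, since a solvent control was not analysed here. The libraries of 44 conditions, 3 each, had 25832557 to 69434151 counts, and the members took 0.0567% to 0.143% of the counts of a library. All 5 epithelial markers (EPCAM, CDH1, KRT8, KRT18, KRT19) were above 1 CPM on average in every line, although CDH1 was at 1.01 CPM in Hs746T and 2.42 CPM in MKN1 cells. Of 5 mesenchymal markers (VIM, CDH2, ZEB1, FN1, SPARC), 5 were above 1 CPM in Hs746T cells and 4 in each other line. In Hs746T cells FN1 was at 2341, CDH2 at 83.2 and ZEB1 at 60.6 CPM, beside 351 CPM for KRT8, the highest epithelial marker there. VIM was at 520 CPM in MKN1 but at 5.63 CPM in MKN7 and 6.12 CPM in NCI-N87 cells. None of 4 leukocyte markers was above 1 CPM, and CD68 was at 0 in every library. The 0 of CD68 cannot tell an unexpressed gene from an identifier that was not counted. The 37 mitochondrial identifiers also held 0 counts. Of 3 endothelial markers, PECAM1 was at 163 CPM in Hs746T cells and 11.7 CPM in MKN1 cells. The others, VWF and CDH5, were at 0.322 and 0.0579 CPM in Hs746T and at 1.33 and 0.163 CPM in MKN1 cells. CPM is a gene's count scaled to the TMM-normalized size of its library.

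On the genome build GRCh38, GENCODE release 29 places DNMT1 on chromosome 19 from 10133345 to 10231286, UHRF1 on chromosome 19 from 4903080 to 4962154, HELLS on chromosome 10 from 94501434 to 94613905, DNMT3A on chromosome 2 from 25227855 to 25342590, and DNMT3B on chromosome 20 from 32762385 to 32809356. TET1 lies on chromosome 10 from 68560656 to 68694482, TET2 on chromosome 4 from 105145875 to 105279816, TET3 on chromosome 2 from 73986404 to 74108176, EZH2 on chromosome 7 from 148807383 to 148884321, and SUZ12 on chromosome 17 from 31937018 to 32001045. All are protein-coding, and the counts are over their exons as far as the files tell. SUZ12 shares sequence with its pseudogene SUZ12P1, which held a mean of 631 counts per library beside 4603 on SUZ12. HELLS overlaps TBC1D12 on the same strand, which held a mean of 258 counts beside 1377 on HELLS, so the values of SUZ12 and HELLS are less certain than the others.

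Promoter windows of RefSeq (GRCh38.p14), from 250 bases before to 50 bases after each annotated start, were found for all 10 members, 22 windows in all. The words TTTCCCGC, TTTGGCGC, TTTCGCGC and TTTGCCGC, forms of the E2F motif of cell cycle genes, were searched on both strands. These words were chosen with earlier results of these data known. They stood in windows of 5 members, DNMT1, UHRF1, EZH2, SUZ12 and HELLS, and in none of the windows searched of DNMT3A, DNMT3B, TET1, TET2 and TET3. The only window of DNMT3B begins at base 32779602 of chromosome 20, inside the gene, which GENCODE places from 32762385. A start of DNMT3B at that outer position was not searched, so the absence of a word holds for this window only. The windows of DNMT1, UHRF1 and HELLS also lie inside the GENCODE bounds of these genes. Of all 35116 windows of 300 bases in the RefSeq table, 3.31% held 1 of these words. Each word holds a CpG, and this share was not matched for CpG content. The median over all windows was 14 CpG, while windows of the members with a word held 22 to 46. Of those without a word, DNMT3B held 3, TET1 6 to 11, TET2 13 to 35, DNMT3A 18 to 46 and TET3 33 to 45. The CCAAT word was in 34.6% of all windows, and the word TTTGAA, part of the CHR element, in 15.2%. A match is a description of letters, not a site, and members differed in the number of windows searched, from 1 for DNMT1, DNMT3B, SUZ12 and HELLS to 6 for DNMT3A. The windows below are shown because the members with such a word are the ones described first in the afatinib results, with DNMT3A, which took the other direction there, for contrast. They read 5′ to 3′ on the strand of the gene, with the E2F words in capitals.
DNMT1 (chr19:10194904-10195203, minus strand): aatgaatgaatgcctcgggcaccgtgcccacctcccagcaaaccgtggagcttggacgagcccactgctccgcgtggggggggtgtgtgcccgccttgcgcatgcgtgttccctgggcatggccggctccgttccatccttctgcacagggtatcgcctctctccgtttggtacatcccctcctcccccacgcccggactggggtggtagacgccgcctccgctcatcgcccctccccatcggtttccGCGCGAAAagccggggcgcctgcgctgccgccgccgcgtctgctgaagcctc
UHRF1 (chr19:4909251-4909550, plus strand): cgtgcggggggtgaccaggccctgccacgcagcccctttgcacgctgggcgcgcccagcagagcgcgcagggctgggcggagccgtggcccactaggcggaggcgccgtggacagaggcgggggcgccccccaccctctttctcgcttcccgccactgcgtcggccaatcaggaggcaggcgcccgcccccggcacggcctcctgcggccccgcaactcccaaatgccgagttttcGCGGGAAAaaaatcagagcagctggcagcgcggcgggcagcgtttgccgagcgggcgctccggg
HELLS (chr10:94545538-94545837, plus strand): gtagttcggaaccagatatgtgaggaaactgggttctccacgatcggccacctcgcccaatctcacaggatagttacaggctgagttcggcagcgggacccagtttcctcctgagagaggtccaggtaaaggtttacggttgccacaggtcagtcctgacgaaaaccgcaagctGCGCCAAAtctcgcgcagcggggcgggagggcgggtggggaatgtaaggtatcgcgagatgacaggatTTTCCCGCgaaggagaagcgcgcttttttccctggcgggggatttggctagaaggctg
EZH2 (chr7:148884242-148884541, minus strand): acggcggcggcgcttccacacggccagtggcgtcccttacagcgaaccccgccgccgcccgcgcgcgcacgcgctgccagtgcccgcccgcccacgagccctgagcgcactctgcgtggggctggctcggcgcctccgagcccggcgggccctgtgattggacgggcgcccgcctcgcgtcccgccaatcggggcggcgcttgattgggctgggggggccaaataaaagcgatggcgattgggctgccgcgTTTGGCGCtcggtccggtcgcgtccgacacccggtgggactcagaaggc
SUZ12 (chr17:31936757-31937056, plus strand): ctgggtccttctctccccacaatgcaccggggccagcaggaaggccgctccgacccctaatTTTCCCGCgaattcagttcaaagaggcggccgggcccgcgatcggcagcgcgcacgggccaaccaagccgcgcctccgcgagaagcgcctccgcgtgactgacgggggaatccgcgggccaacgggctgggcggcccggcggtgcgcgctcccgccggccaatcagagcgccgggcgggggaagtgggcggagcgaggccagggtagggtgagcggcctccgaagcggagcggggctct
DNMT3A (chr2:25342541-25342840, minus strand): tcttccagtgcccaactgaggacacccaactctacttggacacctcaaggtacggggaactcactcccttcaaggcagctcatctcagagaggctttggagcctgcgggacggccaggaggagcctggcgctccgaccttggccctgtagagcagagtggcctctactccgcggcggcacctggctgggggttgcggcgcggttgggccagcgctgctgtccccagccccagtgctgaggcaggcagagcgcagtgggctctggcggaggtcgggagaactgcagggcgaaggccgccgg
In the windows shown, counted from the annotated start, the word began at base -2 in DNMT1, -14 in UHRF1, -189 in SUZ12 and 2 in EZH2. HELLS held a pair, at -76 and -8.

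In untreated cells at 24 h, DNMT1 was the member with the highest level per kb of exon in each line, at 65.2 CPM per kb in Hs746T, 42.9 in MKN1, 36.7 in NCI-N87 and 36.4 in MKN7 cells. TET1 was the lowest in 3 of the 4 lines, with 0.970 CPM per kb in MKN1, 0.243 in NCI-N87 and 0.177 in MKN7 cells, while in Hs746T cells TET2 was the lowest at 0.964 CPM per kb. Between lines, the libraries were compared pairwise with edgeR's quasi-likelihood test in a fit of all libraries, with Benjamini-Hochberg adjustment over all 22832 genes tested, and a difference was called at an adjusted p under 0.05. Of all tests in the 6 pairs of lines 67.0% were called, and of the 10 members 7 to 10 were called in each pair, so differences between lines were common in general.

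Among the maintenance genes, DNMT1 was at 639 CPM ± 64.4 in Hs746T, 420 ± 52.0 in MKN1, 360 ± 20.5 in NCI-N87 and 357 ± 8.64 in MKN7 cells (SD, n = 3). The step from NCI-N87 to MKN7 cells was within the spread (adjusted p = 0.940). UHRF1 had a wider range, from 322 CPM ± 21.4 in Hs746T to 92.2 ± 5.29 in MKN7, 78.1 ± 8.18 in NCI-N87 and 55.8 ± 9.74 in MKN1 cells, of which MKN7 and NCI-N87 did not differ beyond their spread (adjusted p = 0.110). HELLS was highest in NCI-N87 cells at 49.1 CPM ± 6.62, followed by Hs746T at 38.6 ± 8.51, MKN7 at 21.8 ± 0.652 and MKN1 cells at 12.8 ± 1.65. The first of these steps was called with an adjusted p of 0.0492, but it was lost without any 1 of the 3 replicates and with library size scaling.

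The de novo methyltransferases had different orders. DNMT3A was highest in NCI-N87 cells at 81.7 CPM ± 3.37, with 52.4 ± 7.42 in MKN7, 23.9 ± 5.14 in MKN1 and 17.6 ± 1.53 in Hs746T cells, and all 3 steps were called. DNMT3B was highest in MKN1 cells at 39.0 CPM ± 3.47 and lowest in NCI-N87 cells at 15.7 ± 1.01, and Hs746T and MKN7 cells lay between them at 27.4 ± 0.157 and 26.4 ± 2.13 without a called difference (adjusted p = 0.689). NCI-N87 cells thus had the highest DNMT3A and the lowest DNMT3B level of the 4 lines.

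TET1 was at 10.9 CPM ± 0.870 in Hs746T and 9.01 ± 2.70 in MKN1 cells but at 2.26 ± 0.169 in NCI-N87 and 1.64 ± 0.321 in MKN7 cells. Only the step between these pairs was called among neighbours (log2 difference of MKN1 over NCI-N87 2.0, adjusted p = 1.24e-14). TET2 and TET3 were highest in NCI-N87 cells. TET2 was at 52.2 CPM ± 4.15 in NCI-N87, 26.3 ± 4.08 in MKN7, 24.5 ± 3.23 in MKN1 and 15.9 ± 0.995 in Hs746T cells, and MKN7 and MKN1 did not differ beyond their spread (adjusted p = 0.402). TET3 was at 185 CPM ± 26.2 in NCI-N87, 117 ± 10.1 in MKN7, 83.6 ± 10.9 in MKN1 and 38.1 ± 4.55 in Hs746T cells, with all 3 steps called.

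Of the PRC2 subunits, EZH2 was at 86.4 CPM ± 7.39 in MKN1, 85.2 ± 2.71 in MKN7, 75.1 ± 2.83 in Hs746T and 51.3 ± 1.87 in NCI-N87 cells, and the first of these steps was not called (adjusted p = 0.829). SUZ12 was at 121 CPM ± 10.6 in NCI-N87, 114 ± 19.7 in Hs746T, 78.8 ± 10.9 in MKN1 and 60.5 ± 5.14 in MKN7 cells, and the first step was again within the spread (adjusted p = 0.597). Some called steps were lost without 1 replicate: DNMT1 between MKN1 and NCI-N87 (replicate 1 or 3), UHRF1 between NCI-N87 and MKN1 (replicate 2), DNMT3A between MKN1 and Hs746T (replicate 1), TET3 between MKN7 and MKN1 (replicate 2), EZH2 between MKN7 and Hs746T (replicate 1 or 2), and SUZ12 between Hs746T and MKN1 (replicate 2) and between MKN1 and MKN7 (replicate 3). The TET3 and EZH2 steps were also lost with library size scaling. The plot of untreated levels shows these orders per kb of exon.

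**Figure D1:**
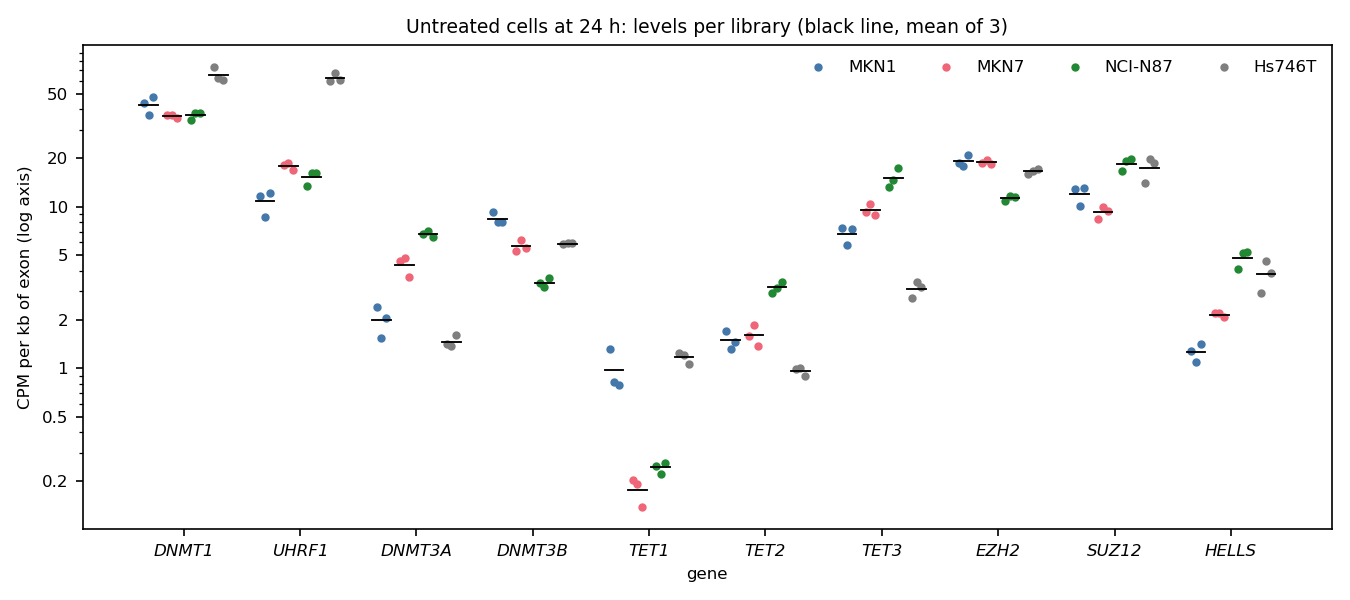
Level of each gene in untreated cells at 24 h, as CPM per kb of exon on a log axis. Points are the 3 libraries of each cell line and horizontal bars their means: DNMT1 lies at the top in all lines (36.4 to 65.2 CPM per kb), and TET1 in MKN7 cells lies lowest at 0.177.

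The question of the afatinib comparisons was which of these genes follow inhibition of EGFR and HER2. After 24 h of afatinib, the genes of maintenance methylation and PRC2 fell in NCI-N87, MKN7 and MKN1 cells, most in NCI-N87 cells, where DNMT1 fell by 77.2%, UHRF1 by 76.5% and HELLS by 73.4%. DNMT3A moved the other way and rose in NCI-N87 and MKN7 cells. In Hs746T cells 0 members were called, as were 0 of all 18667 genes. Untreated cells of the same line and time were the reference throughout, in a fit of all libraries of a line. Overlap of libraries between groups is given as description, since its share over all genes was not counted.

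In NCI-N87 cells at 24 h, 8 of 10 members were called, 7 lower and 1 higher, where 62.5% of all 19078 genes tested were called. Their median log2FC was -0.75, beside 0.03 over all genes tested. DNMT1, the maintenance methyltransferase, was at 347, 386 and 384 CPM in the untreated and at 81.9, 85.4 and 87.7 CPM in the afatinib libraries (log2FC -2.13, SE 0.08, adjusted p = 6.95e-15). UHRF1 was at 70.8, 85.5 and 86.1 CPM untreated and at 16.3, 20.1 and 20.5 CPM with afatinib (log2FC -2.09, SE 0.10, adjusted p = 2.67e-13). HELLS was at 42.8, 54.3 and 55.3 CPM untreated and at 11, 14.8 and 14.8 CPM with afatinib (log2FC -1.91, SE 0.15, adjusted p = 3.78e-10). For each of these genes every afatinib library lay far below every untreated one, and these were the 3 members that also passed an absolute log2FC of 1. The 39 S phase genes tested beside them, described further on, had a median log2FC of -1.99 in this comparison. Their part in the result was not tested, and in bulk RNA fewer cells in S phase and less RNA per cell cannot be told apart.

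The PRC2 subunits of NCI-N87 cells fell by less. EZH2 went from 50.7, 54.5 and 54.0 CPM to 27.8, 26.7 and 28.5 CPM (log2FC -0.94, SE 0.08, adjusted p = 3.33e-09). SUZ12 went from 112, 130 and 133 CPM to 61.1, 72.4 and 73.1 CPM (log2FC -0.86, SE 0.09, adjusted p = 3.33e-08). The groups did not overlap for either gene. Of the TET enzymes, TET3 fell from 167, 186 and 221 CPM to 120, 118 and 131 CPM (log2FC -0.64, SE 0.10, adjusted p = 1.52e-05), while TET1 had a log2FC of 0.10 (adjusted p = 0.581) and TET2 of 0.13 (adjusted p = 0.142). DNMT3B fell from 16.0, 15.2 and 17.3 CPM to 11.8, 11.9 and 13.3 CPM (log2FC -0.39, SE 0.11, adjusted p = 0.00330). DNMT3A rose from 84.1, 88.1 and 81.3 CPM to 96.1, 101 and 97.4 CPM (log2FC 0.22, SE 0.07, adjusted p = 0.0105), a small change in libraries that did not overlap. Scaling by library size alone moved the median of all genes by 0.26 on the log2 scale in this comparison. It gave -1.87 for DNMT1 and -0.68 for EZH2, moved DNMT3A to 0.48 and TET3 to -0.37, lost the call of DNMT3B and added TET1 (0.36) and TET2 (0.40) as higher. The replicate block, a fit with the replicate number as a term, added TET2 as higher (0.14, adjusted p = 0.0497), 9 in all, where 72.1% of all genes were called. The call of DNMT3B was also lost without replicate 1, and that of DNMT3A without replicate 3.

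In MKN7 cells at 24 h, 7 members were called, 6 lower and 1 higher, where 51.6% of all genes tested were called (median log2FC of the members -0.37, of all genes 0.04). DNMT1 went from 346, 344 and 335 CPM to 187, 172 and 193 CPM (log2FC -0.89, SE 0.07, adjusted p = 4.79e-09), UHRF1 from 89.3, 92.1 and 83.3 CPM to 45.1, 49.4 and 53.3 CPM (log2FC -0.84, SE 0.08, adjusted p = 7.45e-08) and HELLS from 21.1, 21.2 and 20.3 CPM to 10.2, 10.9 and 13.8 CPM (log2FC -0.84, SE 0.10, adjusted p = 9.40e-07). These 3 genes of maintenance methylation fell in similar proportion, and no afatinib library reached an untreated one. EZH2 fell from 80.0, 84.3 and 80.3 CPM to 52.1, 50.6 and 54.4 CPM (log2FC -0.64, SE 0.07, adjusted p = 4.46e-07), SUZ12 by 0.41 (SE 0.08, adjusted p = 0.000187) and DNMT3B by 0.34 on the log2 scale (SE 0.11, adjusted p = 0.0123). The call of DNMT3B was lost without replicate 2. DNMT3A rose from 52.8, 55.3 and 42.4 CPM to 79.5, 85.6 and 70.9 CPM (log2FC 0.65, SE 0.14, adjusted p = 0.000427), again without overlap. TET1, TET2 and TET3 had log2FC of 0.40, 0.17 and -0.18 with adjusted p of 0.112, 0.172 and 0.188. With the block TET1 (0.39, adjusted p = 0.0149) and TET2 (0.18, adjusted p = 0.0187) were called higher, 9 members in all, where 63.7% of all genes were called. Library size scaling lost DNMT3B and added the same pair as higher (0.51 and 0.29), so that 3 members were higher and 5 lower.

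In MKN1 cells at 24 h, 5 members were called, all lower, where 25.6% of all genes tested were called (median log2FC of the members -0.33, of all genes 0.01). EZH2 went from 82.7, 81.9 and 94.6 CPM to 57.3, 63.8 and 55.5 CPM (log2FC -0.55, SE 0.07, adjusted p = 1.29e-06). DNMT1 went from 424, 370 and 466 CPM to 333, 297 and 274 CPM (log2FC -0.48, SE 0.12, adjusted p = 0.00236) and UHRF1 from 59.2, 45.3 and 62.6 CPM to 43.0, 30.6 and 31.3 CPM (log2FC -0.67, SE 0.18, adjusted p = 0.00569). Here the replicates of each group spread more, and the 3 genes did not overlap between groups, which was not counted over all genes. HELLS fell by 0.39 (SE 0.13, adjusted p = 0.0192) and SUZ12 by 0.29 on the log2 scale (SE 0.11, adjusted p = 0.0413), and the SUZ12 libraries overlapped. DNMT3A was at 28.4, 18.8 and 24.4 CPM untreated and at 35.5, 24.6 and 35.4 CPM with afatinib, with groups that overlapped and a log2FC of 0.41 (adjusted p = 0.0578). With the replicate number as a block, all 10 members were called, 7 lower and 3 higher, DNMT3A, TET1 and TET2, where 42.2% of all genes were called. Without replicate 3 of every group only EZH2 was called, and without replicate 1 or 2 the count was 4 or 6. Library size scaling lost SUZ12 and HELLS and added DNMT3A as higher.

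In Hs746T cells, DNMT1 was at 693, 638 and 604 CPM untreated and at 669, 598 and 566 CPM after 24 h of afatinib. EZH2 was at 70.2, 78.8 and 79.0 CPM untreated and at 72.2, 78.7 and 68.1 CPM with afatinib. For all 10 genes the libraries of both groups overlapped at 24 h, and the log2FC lay between -0.13 and 0.03. Over the 12 comparisons of treatments in Hs746T cells, edgeR called 0 of 120 tests of members, as it called 0.00% of all tests. At an unadjusted p under 0.05 there were 6 of the 120, beside 4279 of the 224004 tests of all genes, and DESeq2 called 0. With the replicate block, 5 members were called lower after 4 h of afatinib, where 18.6% of all genes were called. They included UHRF1, at 350, 372 and 370 CPM untreated and 278, 278 and 326 CPM with afatinib (blocked log2FC -0.31, adjusted p = 0.00258), and DNMT3A (blocked log2FC -0.27, adjusted p = 0.00414), followed by DNMT1, TET1 and TET3. After 4 h of trastuzumab + afatinib the block called UHRF1 and DNMT3A, where 1.67% of all genes were called.

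**Figure D2:**
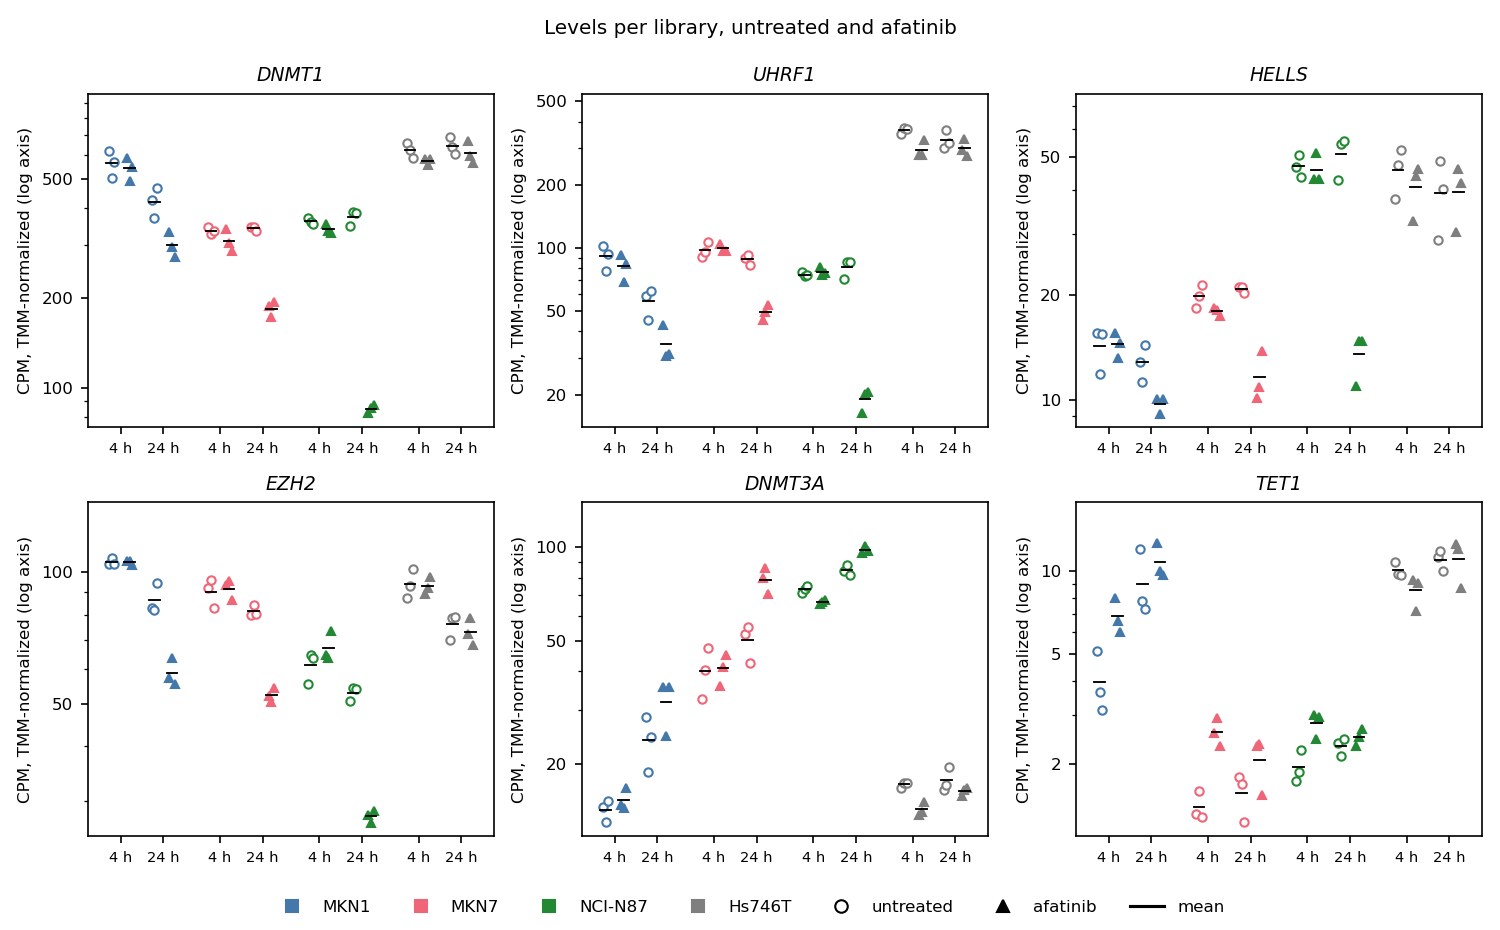
CPM of 6 of the genes on a log axis in untreated (circles) and afatinib (triangles) libraries at 4 h and 24 h, coloured by cell line, with 3 libraries per group and a black line at their mean. DNMT1, UHRF1 and HELLS are lowest relative to untreated in the NCI-N87 libraries with afatinib at 24 h (DNMT1 81.9 to 87.7 CPM against 347 to 386 untreated), DNMT3A is higher there, and the groups of Hs746T cells overlap at 24 h.

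The difference between lines in the effect of afatinib at 24 h was tested as an interaction in the fit of all libraries. The fall of DNMT1 was larger in NCI-N87 than in MKN7 cells by 1.21 on the log2 scale (SE 0.15, adjusted p = 9.02e-11), and UHRF1 and HELLS also differed between these lines, 3 members in all, where 21.4% of all genes differed. HELLS was lost without replicate 3. With the replicate block 7 members differed, where 38.3% of all genes did. Against MKN1 cells 5 members fell further in NCI-N87 cells, DNMT1, UHRF1, HELLS, EZH2 and SUZ12, where 28.0% of all genes differed, and the block added DNMT3B (44.5% of all genes). The count was 3 with library size scaling and 3 without replicate 2, each time without EZH2 and SUZ12, and SUZ12 was also lost without replicate 3. Against Hs746T cells 6 members differed in NCI-N87 cells, the same 5 and DNMT3B, where 35.1% of all genes did, and DNMT3B was lost without any 1 of the replicates and with library size scaling, which added DNMT3A as higher (0.59). The block added TET3 (-0.48) and DNMT3A (0.37), 8 in all, where 48.6% of all genes differed.

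Between MKN7 and Hs746T cells 5 members differed, DNMT1, UHRF1, EZH2 and HELLS with a lower and DNMT3A with a higher value in MKN7, where 18.8% of all genes did. DNMT3A differed by 0.77 (SE 0.19, adjusted p = 0.00117), and its call was lost without replicate 3, as that of HELLS was without replicate 2. The block added DNMT3B (-0.37) and SUZ12 (-0.44), where 36.1% of all genes differed. Between MKN1 and Hs746T cells only EZH2 differed, by -0.49 (SE 0.11, adjusted p = 0.00170), where 4.41% of all genes did. With the block 6 members did, where 21.4% of all genes did: DNMT1, UHRF1, SUZ12 and HELLS were added as lower and DNMT3A as higher in MKN1 cells. Between MKN7 and MKN1 cells edgeR called 0 members, where 7.61% of all genes were called. DESeq2 called 1, and the block called DNMT1 (-0.42), HELLS (-0.47) and DNMT3A (0.23), where 25.6% of all genes were called.

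At 4 h of afatinib alone the called members were TET genes, in counts near the share of all genes called. In MKN7 cells 3 members were called, where 22.2% of all genes were. TET1 rose from 1.32, 1.60 and 1.28 CPM to 2.60, 2.94 and 2.32 CPM (log2FC 0.90, SE 0.21, adjusted p = 0.00357), and TET2 rose from 20.5, 24.6 and 24.5 CPM to 29.7, 33.5 and 31.5 CPM (log2FC 0.44, SE 0.11, adjusted p = 0.00410). TET3 fell from 117, 145 and 153 CPM to 89.3, 93.9 and 80.8 CPM (log2FC -0.65, SE 0.11, adjusted p = 0.000202). None of these groups overlapped, which was not counted over all genes. TET1 and TET2 lost their calls without replicate 1, where only TET3 was called. In NCI-N87 cells 2 members were called, where 18.2% of all genes were. TET1 rose from 1.74, 1.88 and 2.25 CPM to 3.02, 2.46 and 2.97 CPM (log2FC 0.52, SE 0.15, adjusted p = 0.0175), and TET2 from 54.2, 46.3 and 45.7 CPM to 64.7, 57.2 and 61.7 CPM (log2FC 0.33, SE 0.08, adjusted p = 0.00484). Without replicate 1 only TET2 was called, and without replicate 2 or 3 the count was 0. The block added DNMT3B as higher (0.30, adjusted p = 0.000822), where 33.0% of all genes were called.

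In MKN1 cells after 4 h of afatinib edgeR called 0 members, where 3.68% of all genes were called. At an unadjusted p under 0.05 there were 3 members, beside 2993 of all 19815 genes, and DESeq2 called 1. TET1 was at 5.15, 3.65 and 3.13 CPM untreated and at 7.95, 6.56 and 6.02 CPM with afatinib, without overlap (log2FC 0.77, adjusted p = 0.0627). With the replicate block TET1 (adjusted p = 2.31e-05), DNMT3B (0.00366) and TET2 (0.00617) were called higher, where 13.2% of all genes were called. Leaving out replicate 1 added TET1, and leaving out replicate 2 added TET2. TET1 is low in MKN7 and NCI-N87 cells, so its fold changes there rest on fewer counts than those of the other members.

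The effect at 24 h was set against that at 4 h as an interaction. In NCI-N87 cells 8 members differed, where 35.8% of all genes did, DNMT1 by -2.04 (SE 0.11, adjusted p = 1.36e-11), UHRF1 by -2.14 (SE 0.14, adjusted p = 2.44e-10) and DNMT3A by 0.35 (SE 0.10, adjusted p = 0.00874). Without replicate 2 the count was 5. Library size scaling gave 0.54 for DNMT3A and lost TET3 (-0.28, adjusted p = 0.198, beside -0.47), and the block added TET1 (-0.43), where 50.9% of all genes differed. In MKN7 cells 8 members differed, where 18.0% of all genes did, with DNMT1 at -0.78 (SE 0.10, adjusted p = 1.31e-05) and TET3 at 0.47 (SE 0.16, adjusted p = 0.0421), since TET3 was called lower at 4 h and not at 24 h. The count in MKN7 cells was 4, 3 and 4 without replicates 1, 2 and 3, and with the block it was 9, with TET2 added (-0.26), where 36.7% of all genes differed. Library size scaling lost DNMT3B there. In MKN1 cells only EZH2 differed (-0.55, SE 0.10, adjusted p = 0.00255), where 2.77% of all genes did, and its call was lost without replicate 1 and without replicate 3. With the block 6 members differed in MKN1 cells, where 15.7% of all genes did.

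**Figure D3:**
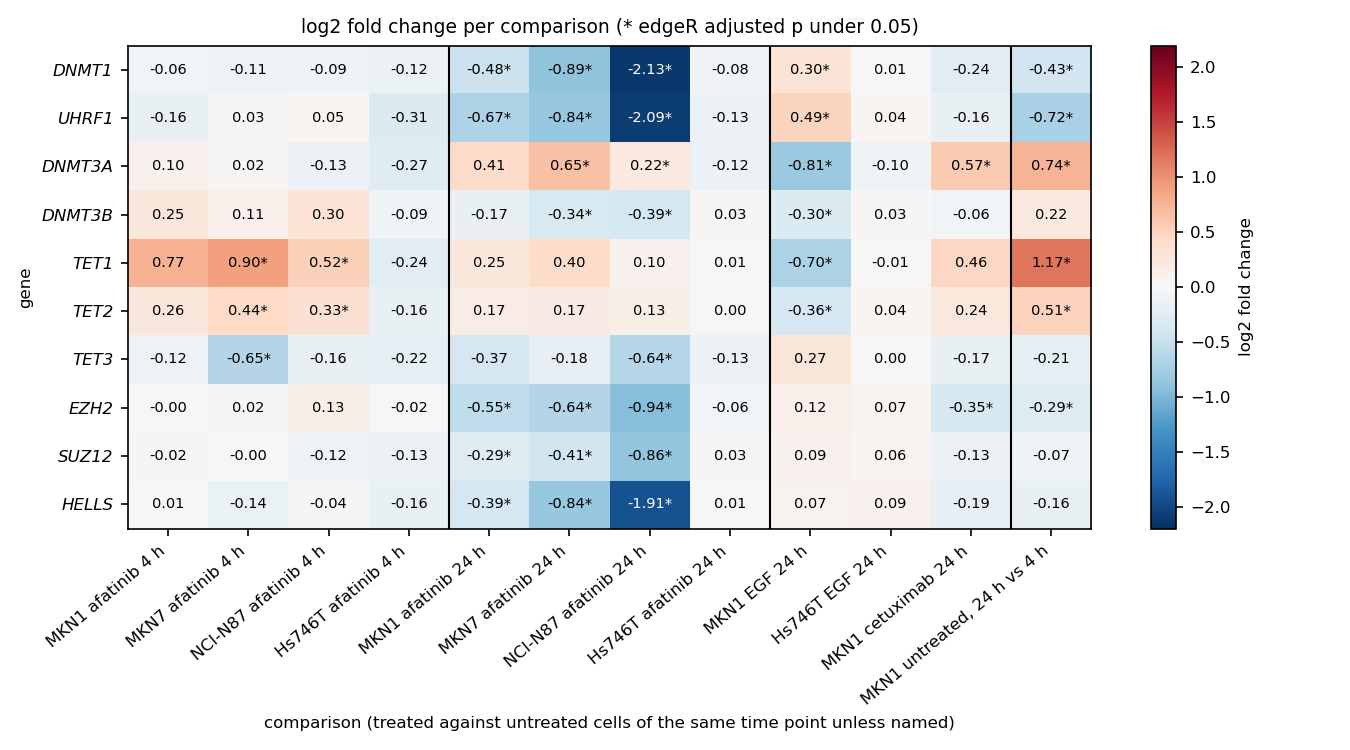
Log2 fold changes printed in a grid of genes (rows) and comparisons (columns), with blue for lower, red for higher and an asterisk for an edgeR adjusted p under 0.05: afatinib at 4 h and at 24 h in the 4 cell lines, EGF and cetuximab at 24 h, and untreated MKN1 cells at 24 h against 4 h. At 24 h of afatinib DNMT1, UHRF1 and HELLS are between -2.13 and -1.91 in NCI-N87 cells and at -0.89 and -0.84 in MKN7 cells, while DNMT3A is above 0 in both.

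Trastuzumab + afatinib gave values close to those of afatinib, and the untreated libraries are shared by both comparisons. At 24 h, 8 members were called in NCI-N87 cells (64.7% of all genes), 7 in MKN7 (51.9%) and 5 in MKN1 cells (26.8%). DNMT1 was at 78.2, 85.5 and 74.9 CPM in NCI-N87 cells with the combination, and its log2FC was -2.23 there, -0.89 in MKN7 and -0.43 in MKN1 cells. The block called all 10 in NCI-N87 (73.6% of all genes) and in MKN7 cells (64.0%), with TET1 and TET2 higher in both and TET3 lower in MKN7. Library size scaling also added TET1 and TET2 as higher in both lines and lost DNMT3B, and in NCI-N87 cells it moved DNMT3A from 0.21 to 0.52, TET3 from -0.61 to -0.30 and SUZ12 from -0.83 to -0.52. In MKN1 cells DNMT3A (0.48, adjusted p = 0.0253) and TET2 (0.31, adjusted p = 0.0166) were called higher with the combination, and DNMT1, UHRF1 and EZH2 lower. Library size scaling lost DNMT1 and UHRF1, leaving 3. With the block 9 members were called in MKN1 cells, where 44% of all genes were, without replicate 3 only EZH2, and without replicate 1 UHRF1 and DNMT3A were lost. At 4 h, 3 members were called in MKN7 cells, TET1, TET2 and TET3 (23.4% of all genes), and 5 with the block (40.3%), with only TET3 left without replicate 1. In NCI-N87 cells DNMT3A alone was called, lower by 0.21 on the log2 scale (adjusted p = 0.0475), where 17.3% of all genes were, and the call was lost without any 1 replicate. The block called 7 (32.5% of all genes). In MKN1 cells edgeR called 0 at 4 h (3.95% of all genes). At an unadjusted p under 0.05 there were 3 members, beside 3113 of all 19815 genes. DESeq2 called 1, and the block called DNMT3B, TET1 and TET2 higher (13.8%).

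Trastuzumab alone gave 0 called members in 80 tests over the 4 lines and both times. In the 6 comparisons of MKN1, MKN7 and NCI-N87 cells 0.00% of all tests were called. At an unadjusted p under 0.05 there were 4 tests of members over the 4 lines, beside 3330 tests of all genes. In MKN1, MKN7 and NCI-N87 cells there were 3 of 60, beside 2883 of 114752. DESeq2 called 0 members over the 4 lines and the replicate block 0. The log2FC of the members lay between -0.28 and 0.16. In NCI-N87 cells at 24 h, DNMT1 was at 328, 369 and 343 CPM with trastuzumab beside 347, 386 and 384 CPM untreated, so that the groups overlapped.

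EGF and cetuximab were compared in MKN1 cells. After 24 h of EGF, 6 members were called, 2 higher and 4 lower, where 35.8% of all genes were called. DNMT3A was at 28.4, 18.8 and 24.4 CPM untreated and at 15.1, 9.87 and 15.8 CPM with EGF (log2FC -0.81, SE 0.17, adjusted p = 0.000235). TET1 was at 12, 7.78 and 7.26 CPM untreated and at 5.95, 5.05 and 5.62 CPM with EGF (log2FC -0.70, SE 0.23, adjusted p = 0.0170). TET2 was lower by 0.36 (adjusted p = 0.00373) and DNMT3B by 0.30 on the log2 scale (adjusted p = 0.0219). The libraries of these 4 called genes did not overlap, which was not counted over all genes. The untreated reference of DNMT3A and TET1 itself rose with time. Mean DNMT3A went from 14.3 CPM at 4 h to 23.9 CPM at 24 h untreated, and from 14.9 to 13.6 CPM with EGF. Mean TET1 at 4 h was 3.98 CPM untreated and 2.77 CPM with EGF, and at 24 h 5.54 CPM with EGF. TET1 thus rose with EGF too, to a lower level than untreated. Changes with time under EGF were not tested. DNMT1 was at 424, 370 and 466 CPM untreated and at 562, 463 and 529 CPM with EGF (log2FC 0.30, adjusted p = 0.0412), and UHRF1 had a log2FC of 0.49 (adjusted p = 0.0327), both in groups that overlapped. Library size scaling moved the median of all genes by -0.20 on the log2 scale and lost the calls of DNMT1 (0.11) and UHRF1 (0.30), with DNMT3B at -0.50 and TET2 at -0.55. The block added TET3 as higher (0.27), where 51.1% of all genes were called. The count fell to 3 without any 1 replicate, and of the 6 members DNMT3A alone was called in every such fit. The effect of EGF on DNMT3A was larger at 24 h than at 4 h by -0.87 (SE 0.23, adjusted p = 0.0155), the only member that differed, where 9.46% of all genes did, and it was lost without replicate 1 and without replicate 3. With the block DNMT3A and TET2 differed, where 26.3% of all genes did. It also differed from that in Hs746T cells by -0.75 (SE 0.19, adjusted p = 0.00477), where 7.93% of all genes did. This call was lost without replicate 1 and without replicate 2, and with the block 6 members differed, where 25.5% of all genes did.

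After 24 h of cetuximab, 2 members were called in MKN1 cells, where 10.8% of all genes were. DNMT3A rose from 28.4, 18.8 and 24.4 CPM to 36.7, 32.3 and 37.7 CPM (log2FC 0.57, SE 0.16, adjusted p = 0.0196), the opposite direction to EGF, and EZH2 fell from 82.7, 81.9 and 94.6 CPM to 65.1, 72.7 and 65.8 CPM (log2FC -0.35, SE 0.07, adjusted p = 0.00206). Both calls were lost without replicate 1 and without replicate 3. With the block TET1, TET2 and DNMT1 were added, 5 in all, where 30.4% of all genes were called. In the presence of EGF, cetuximab gave 0 called members by edgeR at 4 h (0.701% of all genes) and at 24 h (0.646%), and 0 by DESeq2 at both times. At an unadjusted p under 0.05 there were 0 and 1 members, beside 1354 and 2046 of all 19815 genes. At 24 h the block called DNMT3A (0.37) and DNMT3B (0.21), where 7.22% of all genes were called. DNMT3A was at 15.1, 9.87 and 15.8 CPM with EGF and at 17.9, 14.9 and 19.4 CPM with EGF + cetuximab. At 4 h edgeR called 0 members after EGF (6.82% of all genes) and 0 after cetuximab (1.43%). At an unadjusted p under 0.05 there were 2 for each, beside 3402 (EGF) and 2114 (cetuximab) of all 19815 genes, and DESeq2 called 0. The block called DNMT3B and TET1 lower after EGF (17.0%), and TET1 and TET2 higher after cetuximab (7.5%).

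The untreated cultures themselves changed with time in MKN1 cells, where 6 members were called between 4 h and 24 h and 34.1% of all genes were. DNMT1 was at 620, 506 and 572 CPM at 4 h and at 424, 370 and 466 CPM at 24 h (log2FC -0.43, SE 0.12, adjusted p = 0.00427), and UHRF1 at 103, 77.8 and 94.0 CPM and then at 59.2, 45.3 and 62.6 CPM (log2FC -0.72, SE 0.18, adjusted p = 0.00216). EZH2 fell by 0.29 on the log2 scale (adjusted p = 0.00199). TET1 rose from 5.15, 3.65 and 3.13 CPM to 12, 7.78 and 7.26 CPM (log2FC 1.17, SE 0.24, adjusted p = 0.000215), DNMT3A by 0.74 and TET2 by 0.51 on the log2 scale. None of these 6 called genes overlapped between times, which was not counted over all genes. Library size scaling lost DNMT1 and EZH2 and added DNMT3B as higher (0.39, adjusted p = 0.00251), so that 4 members were higher and 1 lower. The block added DNMT3B too (0.22, adjusted p = 0.00275), where 47.2% of all genes were called, and the count was 3 without replicate 1. In MKN7 cells edgeR called 0 members, where 16.4% of all genes were called. The block called DNMT3A higher and DNMT3B, TET3 and SUZ12 lower (30.9% of all genes). In NCI-N87 cells 0 members were called (0.267% of all genes), and with the block DNMT3A alone (0.21, adjusted p = 0.0460), where 4.32% of all genes were. In Hs746T cells 0 members were called (1.48%), and with the block DNMT3B and EZH2, both lower (10.2%). At an unadjusted p under 0.05 there were 3, 2 and 2 members in MKN7, NCI-N87 and Hs746T cells, and DESeq2 called 1, 0 and 1. The counts of all genes at this limit are not given here, so these have no background beside them.

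The genes around the members were read from lists chosen by function, with earlier results of these data known. Their counts stand beside 62.5% of all genes called in either direction after 24 h of afatinib in NCI-N87, 51.6% in MKN7 and 25.6% in MKN1 cells. Of 7 partners of maintenance methylation, 6 fell in NCI-N87 cells after 24 h of afatinib, 6 in MKN7 and 4 in MKN1 cells, with median log2FC of -0.93, -0.56 and -0.23. CDCA7, which recruits HELLS to chromatin, had a log2FC of -3.76 in NCI-N87, -0.98 in MKN7 and -0.48 in MKN1 cells, and PCNA, the replication clamp that DNMT1 binds, of -2.09, -0.88 and -0.35. Among the partners of de novo methylation, 4 of 6 fell and 1 rose in NCI-N87 cells. The H3K36 methyltransferase NSD2 fell by 1.18 and the corepressor TRIM28 by 0.87 on the log2 scale, while the H3K9 methyltransferase SETDB1 had a log2FC of 0.24. In MKN7 cells 2 of 7 rose and 3 fell, and DNMT3L, the cofactor of the de novo enzymes, rose by 2.81 (SE 0.35, adjusted p = 1.21e-06). The level of DNMT3L is not given here, so its fold change may rest on few counts. Its SE was wider than that of NSD2 (0.06) in the same comparison. In MKN1 cells 2 fell, NSD2 and TRIM28.

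Of 11 other PRC2 subunits tested, 7 fell and 1 rose in NCI-N87 cells, 6 fell and 2 rose in MKN7 cells, and 4 fell in MKN1 cells. The one that rose in NCI-N87 cells was EZH1, the paralogue of EZH2, with a log2FC of 1.10 (adjusted p = 2.93e-08), and EZH1 also rose in MKN7 cells by 0.51 (adjusted p = 3.76e-06). The accessory subunits EPOP (-1.92) and PHF19 (-1.22) fell most in NCI-N87 cells, and the median log2FC of the list was -0.57 there. Of 19 PRC1 subunits, 10 fell and 5 rose in NCI-N87 cells, 8 fell and 3 rose in MKN7, and 4 fell and 1 rose in MKN1 cells. The shares of all genes called in either direction were 62.5%, 51.6% and 25.6% in these lines, near those of the list in MKN7 and MKN1 cells. The chromobox gene CBX7 rose in NCI-N87 (1.18) and MKN7 cells (0.65), and PCGF6 fell in NCI-N87 (-1.27) and MKN1 cells (-0.37). Of 7 demethylation partners 3 fell and 1 rose in NCI-N87 cells, TDG, the glycosylase that removes oxidised methylcytosine, by 1.11 on the log2 scale downwards, and IDH1 by 0.60 upwards. In MKN7 cells 1 fell and 2 rose, and in MKN1 cells 1 fell. Of 7 methyl-CpG readers, 3 fell and 2 rose in NCI-N87 cells, with ZBTB4 at 1.19 and MBD3 at -1.0, 4 fell and 1 rose in MKN7, and 1 fell in MKN1 cells. Of the H3K27 demethylases, which oppose EZH2, KDM6A rose at 4 h in MKN7 (0.36) and NCI-N87 cells (0.53). KDM6B fell at 4 h in MKN7 (-1.15), NCI-N87 (-0.65) and MKN1 cells (-0.57), and at 24 h it rose in NCI-N87 cells (0.47, adjusted p = 9.19e-05). In Hs746T cells edgeR called none of the genes of these 7 lists after afatinib at either time, as it called 0 of all 18667 genes.

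A list of 41 S phase genes outside the members, also chosen with earlier results of these data known, was followed beside them. UHRF1 and HELLS are commonly counted as S phase genes too. After 24 h of afatinib all 39 tested S phase genes fell in NCI-N87 (median log2FC -1.99) and all 39 in MKN7 cells (-0.69), 32 of 40 fell in MKN1 cells (-0.34), and 0 of 40 were called in Hs746T cells. Over all genes tested the medians lay between 0.01 and 0.04. Of all genes 62.5% were called in NCI-N87, 51.6% in MKN7 and 25.6% in MKN1 cells, and 0 of 18667 in Hs746T cells. PCNA and CDCA7 stand in both this list and that of maintenance partners. In MKN1 cells 16 of 40 rose and 1 fell after 24 h of EGF. Of all 19815 genes, 3432 were called higher and 3662 lower there (35.8% in all). From 4 h to 24 h untreated 13 of 40 fell, where 3502 of all genes were called higher and 3251 lower (34.1% in all). The fold changes of DNMT1, UHRF1 and HELLS were close to the S phase median in NCI-N87 and MKN7 cells, those of EZH2 and SUZ12 were smaller in NCI-N87 cells, and DNMT3A moved against it. At 4 h of afatinib, 7 S phase genes rose and 1 fell of 39 in MKN7 cells (22.2% of all genes called), and 2 rose and 5 fell in NCI-N87 cells (18.2%), again near the share of all genes.

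**Figure D4:**
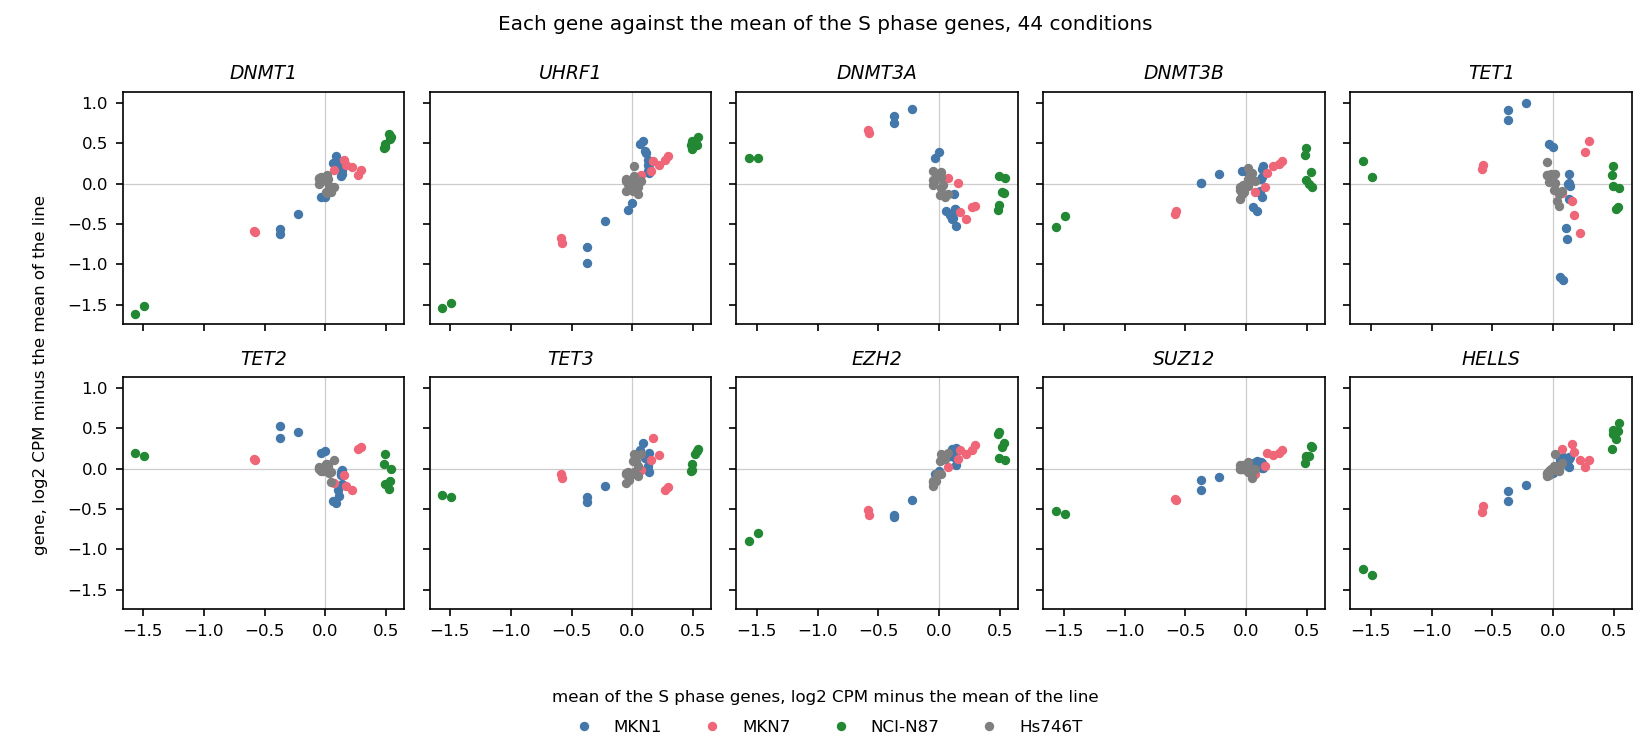
Level of each gene (y axis, log2 CPM centred on the mean of its cell line) against the mean of the S phase genes on the same scale (x axis) in 44 conditions, each point the mean of 3 libraries, coloured by cell line. The NCI-N87 conditions with afatinib at 24 h lie apart at the lower left for DNMT1, UHRF1, HELLS, EZH2 and SUZ12 but not for DNMT3A, TET1 and TET2.

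For each member, the protein-coding genes with the most similar course over the 44 condition means were named by Pearson's r of log2 CPM centred on the line, among 10929 genes. Since 2 conditions, afatinib and trastuzumab + afatinib at 24 h in NCI-N87 cells, lie apart and can carry r, it is also given without them; the values are descriptions over points that share libraries and untreated groups within a line. DNMT1 was most like PARP1, a DNA repair enzyme gene (r = 0.987, without them 0.975) and NUP205 (0.986 and 0.974). For UHRF1 they were CNOT9 (0.982 and 0.967) and DHX9, an RNA helicase (0.980 and 0.963). HELLS ran with the helicase gene MCM8 (0.985 and 0.962) and the cohesin gene SMC1A (0.984 and 0.964). EZH2 ran with the mitotic genes BIRC5 (0.984 and 0.975) and KIF18B (0.976 and 0.964). SUZ12 was most like RFWD3 (0.975 and 0.963) and SCLT1 (0.972 and 0.952). The genes nearest to DNMT3A were EPB41L4A (0.964 and 0.967) and CTNND1, which encodes a catenin of cell junctions (0.959 and 0.960). For DNMT3B the gene given is TUBD1 (0.899 and 0.869). TET1 was nearest to IRF2 (0.944 and 0.946) and AASDH (0.942 and 0.945), TET2 to AKAP9 (0.938 and 0.940) and ZNF69 (0.937 and 0.934), and TET3 to ZNF121 (0.924 and 0.911) and HBEGF, which encodes an EGFR ligand (0.922 and 0.911).

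Among the members themselves, r over the same points was 0.974 for DNMT1 and UHRF1, 0.970 for DNMT1 and HELLS and 0.936 for TET1 and TET2 (0.962, 0.931 and 0.940 without these conditions). It was below 0 for DNMT3A with EZH2 (-0.791, without them -0.854), for DNMT3A with DNMT1 (-0.615 and -0.728) and for TET1 with TET3 (-0.760 and -0.796).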

How the data were processed

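The 132 RNA sequencing libraries came from 4 gastric cancer cell lines, with 3 replicates in each of 44 conditions. The authors purified mRNA, made directional libraries and deposited a table of raw counts by Ensembl identifier for each. The submitters' processing notes name Trim Galore, STAR and hg38; the counting tool and its strand setting are not given in the sources used here. Symbols, positions and exon lengths came from GENCODE release 29, and 8404 identifiers not in that release were left without a symbol. No pair of replicates held identical values.

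Tests of the counts used edgeR 4.0.16 in R 4.3.3: filterByExpr (min.count 10, min.total.count 15), TMM, the quasi-likelihood test, Benjamini-Hochberg over all genes tested, and a call at an adjusted p under 0.05. Each line had its own fit with 1 coefficient per treatment and time, and comparisons between lines used a fit of all 132. Genes tested numbered 19815 (MKN1), 18483 (MKN7), 19078 (NCI-N87) and 18667 (Hs746T). CPM of single libraries in comparisons of treatments are scaled within a line and those between lines over all libraries. The lowest level that 3 counts allow is 0.0432 CPM in the deepest and 0.116 CPM in the shallowest library, for counting error only. SE were derived from the test, and the scripts were tested on simulated data.

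The replicate numbers of the labels were taken as pairing, since the deviations of same-numbered libraries correlated above 0.1 for every number in all 44 comparisons within a line (lowest r 0.104); the replicate block is therefore given where it changes a result. The alternatives were DESeq2 1.42.0, library size scaling, only the groups compared, a filter of at least 10 counts in every library or none, leave-one-out fits, and the block. Shares of all genes called by DESeq2 are not given, so its counts of members stand without a background. The members, the gene lists and the words searched in promoters were chosen with earlier results of these data known. The text names all 10 members, of each list at most 4 called genes with the largest change, and for each member the 2 genes with the highest r among genes with a mean log2 CPM above 1. For DNMT3B only 1 of these is reported here. Figures were drawn with matplotlib 3.10.9.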

Additional observations from a re-analysis of the deposited data

Results flagged for a closer look

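The results listed here are tested differences of an effect between times or between cell lines (edgeR interaction contrasts, adjusted p under 0.05), each a difference of log2 fold changes. For afatinib at 24 h minus 4 h in NCI-N87 cells they were -2.04 for DNMT1, -2.14 for UHRF1, -1.87 for HELLS, -1.07 for EZH2, -0.75 for SUZ12, -0.70 for DNMT3B, -0.47 for TET3 and 0.35 for DNMT3A. In MKN7 cells they were -0.78 for DNMT1, -0.87 for UHRF1, -0.70 for HELLS, -0.66 for EZH2, -0.41 for SUZ12, -0.46 for DNMT3B, 0.47 for TET3 and 0.63 for DNMT3A. The TET3 value of NCI-N87 cells lost its call with library size scaling (-0.28, adjusted p = 0.198), and its difference from that of MKN7 cells was not tested. In MKN1 cells EZH2 differed by -0.55 for afatinib and DNMT3A by -0.87 for EGF.

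For afatinib at 24 h, NCI-N87 minus MKN7 cells gave -1.21 for DNMT1, -1.22 for UHRF1 and -1.04 for HELLS. NCI-N87 minus MKN1 cells gave -1.63 for DNMT1, -1.40 for UHRF1, -1.5 for HELLS, -0.37 for EZH2 and -0.55 for SUZ12. NCI-N87 minus Hs746T cells gave -2.03 for DNMT1, -1.94 for UHRF1, -1.90 for HELLS, -0.86 for EZH2, -0.87 for SUZ12 and -0.40 for DNMT3B. MKN7 minus Hs746T cells gave -0.81 for DNMT1, -0.72 for UHRF1, -0.86 for HELLS, -0.58 for EZH2 and 0.77 for DNMT3A, and MKN1 minus Hs746T cells -0.49 for EZH2. For EGF at 24 h, MKN1 minus Hs746T cells gave -0.75 for DNMT3A. Hs746T cells were in another medium than the other lines, and medium and line cannot be told apart in comparisons with them. Of 40 S phase genes, 33, 38 and 39 were lower for NCI-N87 minus MKN7, MKN1 and Hs746T, 36 for MKN7 minus Hs746T and 0 for MKN1 minus Hs746T. In the same order 21.4%, 28.0%, 35.1%, 18.8% and 4.41% of all genes were called in either direction. The part of the S phase genes was not tested.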

How the results depend on the processing

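Of 154 called results of single members, 151 kept their direction and call with DESeq2, 149 with at least 10 counts in every library, 142 with no filter, 133 with library size scaling and 131 with only the groups compared, and 122, 128 and 119 without replicates 1, 2 and 3. The replicate block kept all 102 that it could be run for, and 0 results reversed under any alternative. No paired analysis was made between untreated lines, where a number marks no shared culture.

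Counts of called members that moved by more than 1.5 times are grouped here by setting. The replicate block gave, for MKN1 cells, 3 (afatinib), 3 (trastuzumab + afatinib), 2 (EGF) and 2 (cetuximab) at 4 h, 10 (afatinib), 9 (trastuzumab + afatinib), 5 (cetuximab) and 2 (EGF + cetuximab against EGF) at 24 h, and 6 (afatinib) and 2 (EGF) for 24 h minus 4 h. It gave 5 in MKN7 and 7 in NCI-N87 cells for trastuzumab + afatinib at 4 h, 5 and 2 in Hs746T cells for afatinib and trastuzumab + afatinib at 4 h, and 4, 1 and 2 for untreated MKN7, NCI-N87 and Hs746T cells over time. Between lines the block gave 7 (NCI-N87 minus MKN7), 3 (MKN7 minus MKN1) and 6 (MKN1 minus Hs746T) for afatinib, and 6 for EGF. Library size scaling gave 2, 2 and 1 in MKN1 cells at 4 h for afatinib, trastuzumab + afatinib and EGF, 3 for trastuzumab + afatinib at 24 h, 3 for NCI-N87 minus MKN1 and 4 for EGF between lines. DESeq2 gave 1 for MKN1 afatinib and 1 for trastuzumab + afatinib at 4 h, 1 for MKN7 and 1 for Hs746T cells over time, and 1, 2 and 2 for MKN7 minus MKN1, MKN1 minus Hs746T and EGF between lines. At least 10 counts in every library gave 1 and 1 for these MKN1 comparisons at 4 h, 3 for trastuzumab + afatinib in NCI-N87 cells at 4 h, 1 for Hs746T cells over time, and 3, 2 and 3 for NCI-N87 minus MKN1, MKN1 minus Hs746T and EGF between lines. No filter gave 1 and 0 in NCI-N87 cells at 4 h for afatinib and its combination. Only the groups compared gave 3, 2 and 1 for afatinib, EGF and cetuximab at 24 h in MKN1 cells, 0 and 0 for their afatinib and EGF effects over time, 5 for MKN7 afatinib over time, 1 and 0 in NCI-N87 cells at 4 h for afatinib and its combination, and 0 and 0 for MKN1 minus Hs746T and EGF between lines, with fewer libraries behind the spread.

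Leaving out 1 replicate of every group gave ranges, at 4 h, of 0 to 1 for afatinib, trastuzumab + afatinib and cetuximab in MKN1, 1 to 3 for afatinib and trastuzumab + afatinib in MKN7, and 0 to 1 for both in NCI-N87 cells. At 24 h in MKN1 cells the ranges were 1 to 6 for afatinib, 1 to 7 for trastuzumab + afatinib, 3 to 3 for EGF and 0 to 4 for cetuximab. Over time they were 3 to 6 for untreated MKN1, 0 to 1 for untreated MKN7, 0 to 2 for afatinib and 0 to 1 for EGF in MKN1, 3 to 4 for afatinib in MKN7 and 5 to 8 in NCI-N87 cells. Between lines they were 3 to 5 for NCI-N87 minus MKN1, 1 to 2 for MKN1 minus Hs746T and 0 to 1 for EGF.

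Library size scaling raised the share of higher calls among all genes from 50.4% to 65.9% for afatinib at 24 h in NCI-N87, from 51.6% to 64.4% in MKN7 and from 47.9% to 64.8% in MKN1 cells, and lowered it from 48.4% to 20.6% for EGF at 24 h in MKN1 cells. Small changes such as that of DNMT3A in NCI-N87 cells depend on the scaling and on the libraries kept, since its call was lost without replicate 3. With 3 replicates such calls are uncertain, and mRNA levels say nothing of protein or of methylation itself.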
